A study of Homo sapiens with 3 samples.

Results

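The genes described here are the ZNF genes of chromosome 19, taken as the gene rows placed on that chromosome whose name is ZNF followed by digits and at most 1 letter. There were 258 such rows among the 43389 gene rows shared by the 3 tables, and among the 2023 rows of chromosome 19. The rule uses position and name and no measured value, although it was set with earlier results of these data known. The 3 libraries were labelled as replicates 1 to 3 of HepG2, an established cell line from a human liver cancer, all wild type, with no treatment and no second genotype or time point, so levels could be compared between genes and not between conditions. Nothing in the labels says whether the replicates came from separate cultures, so the spread between them may be technical. The values are TPM, which gives the share of transcripts that come from a gene, is corrected for transcript length and is scaled to the same total in every library. The depth behind them is unknown.

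Most of these genes encode KRAB zinc finger proteins. A protein of this class binds DNA through a row of C2H2 zinc fingers, and its KRAB box recruits TRIM28, also called KAP1, which brings the histone H3K9 methyltransferase SETDB1, HP1 proteins and histone deacetylases to the bound site. The class is best known for the silencing of retrotransposons, and it grew by repeated local duplication, which left its genes in clusters along chromosome 19. Since a name does not show a KRAB box, the translated transcripts of GENCODE v44 were searched for the conserved residues of the KRAB A box. A match, at least 12 of 17 conserved positions, was found in 212 members, of which 142 had all 17. A further 34 coding members had at most 10 of the positions, and 12 had no coding transcript or were not in GENCODE under that symbol. By this pattern, the label of KRAB-type genes was borne out for 212 of the 258. A KRAB box that departs from the pattern could be missed. The matched proteins had a median of 13 fingers and the coding members without a match a median of 9. ZNF208 had the most fingers, 36.

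The labelled cell type was checked against its markers. Of 7 genes for secreted hepatocyte proteins, 0 reached 1 TPM. ALB, APOA1, APOB, SERPINA1 and FGB were listed at 0 in every library, the highest TTR value was 0.203 TPM, and AFP, which HepG2 cells are known to secrete, was at most 0.0248 TPM. Of the mesenchymal genes, VIM had a mean of 693.8 TPM, CDH2 of 27.1 TPM and COL1A1 of 6.93 TPM. Of the epithelial genes, KRT8 had a mean of 2610 TPM and KRT18 of 2017 TPM, whereas EPCAM did not exceed 0.0901 TPM. The hepatocyte markers thus did not bear out the label, and the identity of the cells was not tested. The levels below are therefore those of the libraries labelled HepG2. Fewer cells expressing a gene and less RNA per cell cannot be told apart in such bulk libraries.

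The cluster of ZNF genes beside the centromere, which had the lowest median level, holds close relatives, many with similar promoters. Sequences of the promoters are therefore shown first. They are the 250 bases before the start of the gene in RefSeq (GRCh38.p14), printed 5′ to 3′ on the strand of the gene with each CpG dinucleotide in capitals. ZNF714 (chr19:21081953-21082202, plus strand) and ZNF431 (chr19:21141790-21142039, plus strand) are the closest pair in the cluster beside the centromere in which both genes reached 1 TPM, with 92.0% identity over the aligned bases and gaps.
ZNF714: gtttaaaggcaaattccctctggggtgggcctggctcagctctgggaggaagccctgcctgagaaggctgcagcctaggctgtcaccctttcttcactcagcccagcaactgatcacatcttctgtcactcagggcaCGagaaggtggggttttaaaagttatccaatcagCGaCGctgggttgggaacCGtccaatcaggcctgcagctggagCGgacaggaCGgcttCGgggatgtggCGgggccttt
ZNF431: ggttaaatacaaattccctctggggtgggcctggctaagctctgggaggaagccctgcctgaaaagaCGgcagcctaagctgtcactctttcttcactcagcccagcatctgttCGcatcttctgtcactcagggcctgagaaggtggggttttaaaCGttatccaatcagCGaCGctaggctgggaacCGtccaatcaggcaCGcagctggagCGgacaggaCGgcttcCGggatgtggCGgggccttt
ZNF486 (chr19:20166964-20167213, plus strand) and ZNF626 (chr19:20661572-20661821, minus strand) are the closest pair of the same cluster in which both were below 0.1 TPM, with 91.2% identity.
ZNF486: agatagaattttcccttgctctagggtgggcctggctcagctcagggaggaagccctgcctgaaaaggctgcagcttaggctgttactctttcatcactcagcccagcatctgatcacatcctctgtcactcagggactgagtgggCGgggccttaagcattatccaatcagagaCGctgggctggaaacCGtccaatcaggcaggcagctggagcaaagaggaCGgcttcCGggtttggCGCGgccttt
ZNF626: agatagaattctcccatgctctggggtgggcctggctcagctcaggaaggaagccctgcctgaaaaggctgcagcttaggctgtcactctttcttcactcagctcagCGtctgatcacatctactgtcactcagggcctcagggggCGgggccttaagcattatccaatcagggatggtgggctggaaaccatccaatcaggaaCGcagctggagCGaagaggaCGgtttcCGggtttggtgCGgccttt
ZNF66 (chr19:20776054-20776303, plus strand) reached 1 TPM, and its promoter shared 88.0% of positions with that of ZNF486, the closest pair with a gene on either side.
ZNF66: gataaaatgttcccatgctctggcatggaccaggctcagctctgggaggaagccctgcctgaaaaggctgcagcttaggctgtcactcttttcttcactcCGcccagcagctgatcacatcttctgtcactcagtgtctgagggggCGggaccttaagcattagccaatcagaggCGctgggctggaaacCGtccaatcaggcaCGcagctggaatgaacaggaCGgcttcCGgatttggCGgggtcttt
ZNF208 (chr19:22010944-22011193, minus strand) and ZNF91 (chr19:23395472-23395721, minus strand) are the closest such pair in which the higher gene reached a mean of 10 TPM, with 86.4% identity.
ZNF208: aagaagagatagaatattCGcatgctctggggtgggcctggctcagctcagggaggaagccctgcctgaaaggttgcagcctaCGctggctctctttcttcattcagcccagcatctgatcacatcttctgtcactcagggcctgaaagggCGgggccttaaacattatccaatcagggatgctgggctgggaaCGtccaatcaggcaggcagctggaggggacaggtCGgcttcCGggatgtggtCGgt
ZNF91: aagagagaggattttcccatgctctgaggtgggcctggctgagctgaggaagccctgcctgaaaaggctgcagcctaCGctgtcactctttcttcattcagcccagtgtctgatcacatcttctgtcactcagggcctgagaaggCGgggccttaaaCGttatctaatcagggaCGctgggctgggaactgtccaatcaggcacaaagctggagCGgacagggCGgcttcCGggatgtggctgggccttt
ZNF787 (chr19:56121296-56121545, minus strand), a gene of the long arm without a KRAB match, is shown for contrast as the highest member whose RefSeq start lies within 100 bases of its deposited 5′ end.
ZNF787: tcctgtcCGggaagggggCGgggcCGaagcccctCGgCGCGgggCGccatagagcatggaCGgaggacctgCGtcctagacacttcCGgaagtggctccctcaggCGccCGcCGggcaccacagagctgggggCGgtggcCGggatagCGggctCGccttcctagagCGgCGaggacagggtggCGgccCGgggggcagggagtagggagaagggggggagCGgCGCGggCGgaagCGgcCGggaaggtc
The 7 promoters from the centromeric cluster held 7 to 11 CpG each, and that of ZNF787 held 27.

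Most ZNF genes of chromosome 19 were detected, at low levels. Of the 258 members, 158 (61.2%) had at least 1 TPM in all 3 libraries, compared with 30.7% of all gene rows, 53.5% of protein-coding rows and 74.6% of the 276 ZNF genes of other chromosomes. At least 10 TPM in all 3 was reached by 26 members (10.1%), compared with 36.3% of protein-coding rows and 23.9% of the ZNF genes of other chromosomes. At the other end, 55 members (21.3%) were listed at 0 in all 3 libraries, compared with 28.0% of protein-coding rows. This share was 16.6% for other protein-coding rows of chromosome 19 and 14.1% for the ZNF genes of other chromosomes, both lower than for the members. Below 0.1 TPM in all 3 were 67 members. The remaining 33 lay between these limits. Members that reached 1 TPM in all 3 libraries had a median of 5.37 TPM, and the same median was 20.0 TPM over all protein-coding rows. Together the 258 genes made up 0.119%, 0.115% and 0.113% of all TPM in replicates 1, 2 and 3.

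**Figure D1:**
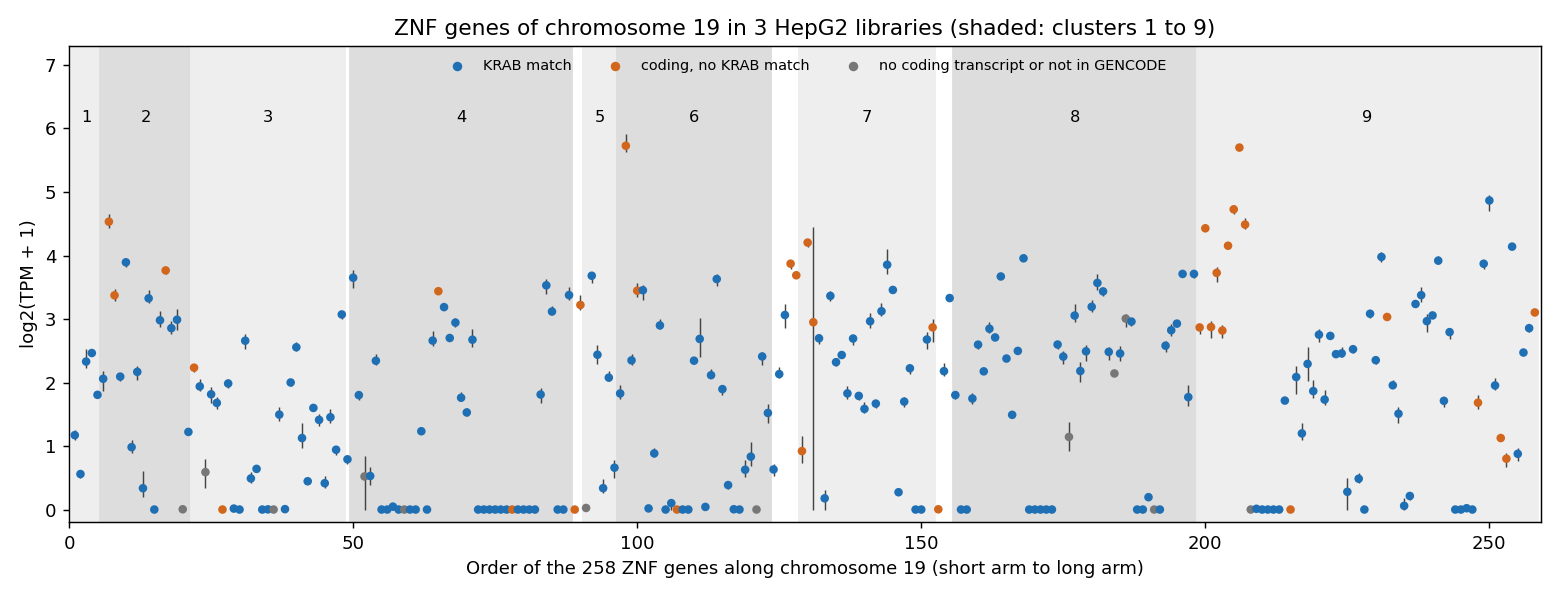
Level of each ZNF gene by its order along chromosome 19. Points are the means of log2(TPM + 1) over 3 libraries, vertical lines run from the lowest to the highest library, shading and numbers mark clusters 1 to 9, and colour gives the KRAB match. Long runs at 0 stand in cluster 4, and the genes at the start of cluster 9 are without a KRAB match and lie among the highest.

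The same name rule picks 276 genes on other chromosomes. These were not searched for a KRAB box, so their share of KRAB genes is unknown here and may differ from that of the members. Their median was 5.26, 4.84 and 4.91 TPM in replicates 1, 2 and 3, compared with 2.71, 2.52 and 2.62 TPM for the members. The difference in median log2(TPM + 1), chromosome 19 minus the others, was -0.73 ± 0.02 (SD, n = 3) and had the same sign in 3 of 3 libraries. Among genes with a mean of 1 TPM or more it was -0.45. An exact two-sided sign-flip permutation test over the libraries gave p = 0.25, which is the smallest value that 3 libraries allow. No difference between gene sets could therefore pass 0.05. Here and below, the SD and p of a set difference describe the spread between libraries and leave out the spread between genes. Against the 1110 other protein-coding rows of chromosome 19, the 246 coding members differed by -0.44 ± 0.09 (SD, n = 3; exact permutation p = 0.25, adjusted over 3 set comparisons 0.25). Among genes with a mean of 1 TPM or more, this difference was -2.30.

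The highest members were mostly those without a KRAB match. The 10 highest, 8 of them without a match, held 23.6% of the summed TPM of all members. ZNF146, also known as OZF, a short protein made almost entirely of zinc fingers, had 59.3, 48.5 and 48.8 TPM in replicates 1, 2 and 3 and was the highest by mean. ZNF787 had 50.4, 51.4 and 51.1 TPM, so the order of these 2 genes changed between libraries. ZNF544 had 30.0, 29.8 and 24.98 TPM and was the highest KRAB-matched member.

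ZNF580, a protein of 172 residues with 3 fingers, followed at 25.7, 26.8 and 24.1 TPM. ZNF358 had 24.1, 21.9 and 20.6 TPM, ZNF444, a SCAN domain protein, had 20.3, 20.9 and 23.2 TPM, and ZNF579 had 21.5, 20.0 and 20.1 TPM. The values of these last 3 genes overlapped between libraries. ZNF576 had a mean of 17.4 ± 0.79 TPM, ZNF581 of 16.8 ± 0.137 TPM and ZNF584, the other KRAB-matched gene among the 10, of 16.6 ± 0.361 TPM (SD, n = 3 each). Among the 20 highest members, 12 had no KRAB match. They included, besides those already named, ZNF574 at 13.6 ± 0.682 TPM, ZNF121 at 12.6 ± 0.456 TPM, ZNF865 at 12.3 ± 1.12 TPM and ZNF428, which is described with the spread between libraries.

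Over the whole set, 131 of the 212 KRAB-matched members (61.8%) and 25 of the 34 coding members without a match (73.5%) reached 1 TPM in all 3 libraries. The medians were 2.49 and 7.97 TPM. The within-library difference in median log2(TPM + 1), matched minus unmatched, was -1.26, -1.35 and -1.33 in replicates 1, 2 and 3, a mean of -1.32 ± 0.05 (SD, n = 3; exact permutation p = 0.25, the smallest possible). At 10 TPM in all 3 libraries the counts were 14 of 212 and 12 of 34. Without the first 9 genes of cluster 9, a block described below, 16 of 25 unmatched members (64.0%) reached 1 TPM and 6 reached 10 TPM. Of these 25, 20.0% were listed at 0, compared with 21.2% of matched members. The share at 1 TPM was then close to that of matched members, whereas the median was still 7.18 TPM. This block was left out after seeing the data. Among the 12 members with no coding transcript or no GENCODE entry, 2 reached 1 TPM, ZNF702P, named as a pseudogene, at 7.05 ± 0.608 TPM and ZNF321P, likewise, at 3.42 ± 0.156 TPM. Both were singled out after their values were seen.

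**Figure D2:**
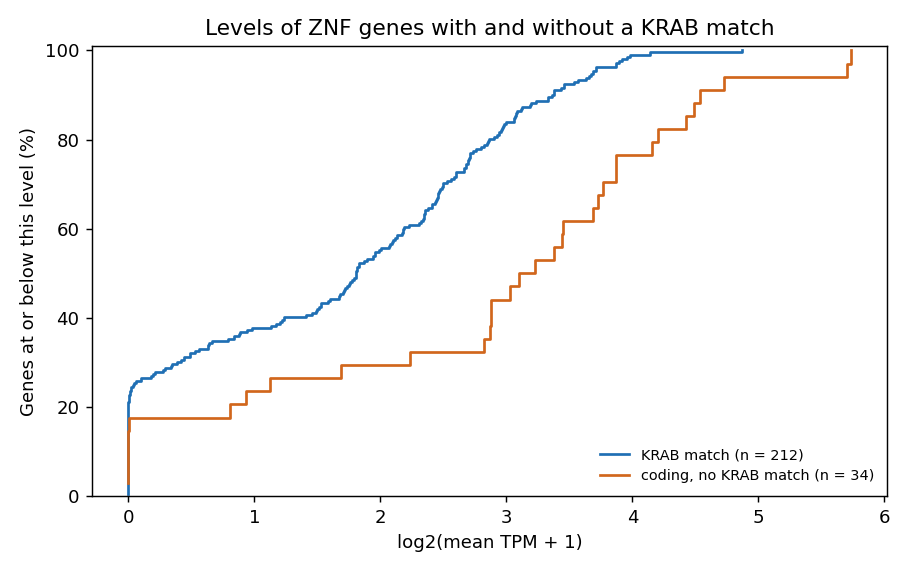
Cumulative share of ZNF genes of chromosome 19 (vertical axis, percent) at or below each level (horizontal axis, log2 of mean TPM + 1), for the 212 genes with a KRAB match and the 34 coding genes without. Both curves start above 0% because some genes of each kind are listed at 0, and the curve of the unmatched genes lies to the right, with medians of 7.97 and 2.49 TPM.

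Among the KRAB-matched members, those with 1 to 9 fingers had a median of 3.80 TPM (n = 44), those with 10 to 12 of 2.56 TPM (n = 55), those with 13 to 15 of 2.03 TPM (n = 61) and those with 16 or more of 2.44 TPM (n = 52). The shares that reached 1 TPM in all 3 libraries were 65.9%, 61.8%, 59.0% and 61.5% in this order. The shares listed at 0 in all 3 were 11.4%, 21.8%, 27.9% and 21.2%. These are descriptions across genes, and were not tested.

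Along the chromosome, 247 members fell into 9 clusters of at least 5 genes with gaps under 1 Mb, and 11 stood outside them. Median levels differed between clusters. Cluster 2 on the short arm (16 genes from ZNF557 to ZNF846, 7069460 to 9786183) had the highest median, 4.88 TPM, and 12 of its genes reached 1 TPM in all 3 libraries. Cluster 4 (39 genes from ZNF101 to ZNF254, 19668070 to 24129968), on the short arm beside the centromere, had a median of 0 TPM, with 16 genes at 1 TPM and 20 listed at 0 in every library. It held 20 of the 55 members listed at 0.

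Compared with all other members within each library, cluster 4 was lower by -1.97 ± 0.07 on the log2(TPM + 1) scale (SD, n = 3, same sign in 3 of 3). Cluster 6 on the long arm (27 genes from ZNF565 to ZNF573, median 0.847 TPM) differed by -0.93 ± 0.16 and cluster 3 (27 genes from ZNF653 to ZNF791, median 1.20 TPM) by -0.84 ± 0.14. Cluster 2 differed by 0.73 ± 0.06, cluster 8 (43 genes from ZNF175 to ZNF331) by 0.63 ± 0.07, cluster 9 (60 genes from ZNF628 to ZNF446) by 0.60 ± 0.04 and cluster 7 (24 genes from ZNF575 to ZNF296) by 0.55 ± 0.12. Cluster 5 (6 genes from ZNF807 to ZNF792) differed by -0.49 ± 0.04 and cluster 1 (5 genes from ZNF554 to ZNF77) by -0.06 ± 0.04. These SD do not show the spread between genes, whose means in cluster 5 ran from 0.0176 to 11.85 TPM. Each cluster difference had an exact permutation p of 0.25, the smallest that 3 libraries allow. It was also 0.25 after Benjamini-Hochberg adjustment over the 9 clusters. Among members with a mean of 1 TPM or more, which leaves out the genes listed at 0, the difference of cluster 4 turned to 0.11 and that of cluster 8 to -0.037. Its 16 expressed genes had a median of 5.45 TPM, close to the 5.37 TPM of all expressed members.

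**Figure D3:**
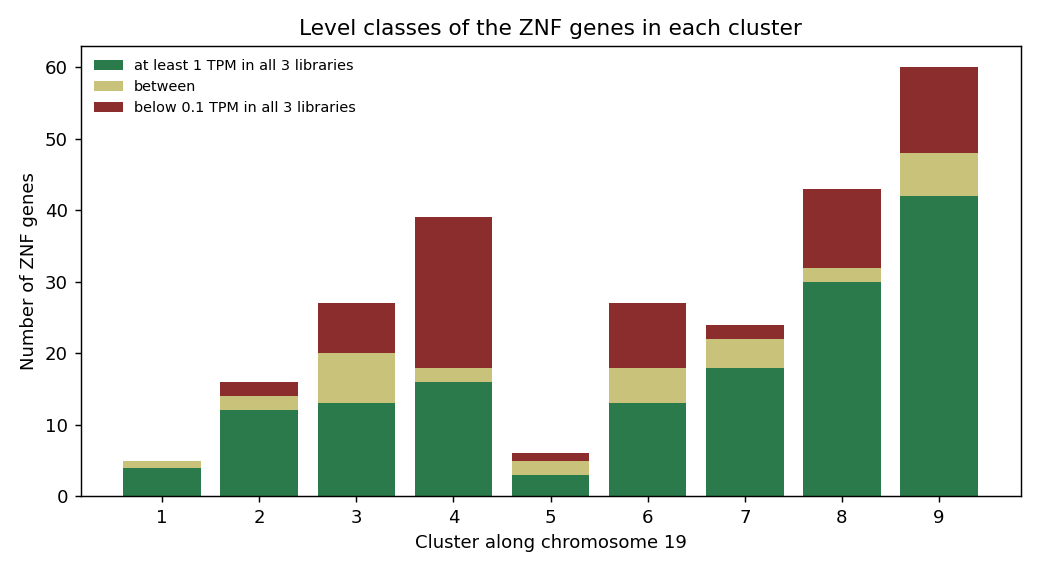
Number of ZNF genes (vertical axis) in each of the 9 clusters (horizontal axis, short arm to long arm), split by level in the 3 libraries. Cluster 4 is the one cluster in which more genes were below 0.1 TPM (21) than reached 1 TPM (16).

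Genes below 0.1 TPM often stood next to each other. Within clusters, 65 members below 0.1 TPM in all 3 libraries were followed by another member, and in 39 of these pairs (60.0%) the follower was also below 0.1 TPM, compared with 26.0% of all members. There were 5 runs of at least 4 such neighbours. The longest, from ZNF43 to ZNF730 in cluster 4, spanned 1.34 Mb and held 11 genes, all listed at 0 in all 3 libraries. It was followed by ZNF724 at 2.57, 2.77 and 2.21 TPM and by ZNF91 at 10.9, 11.4 and 9.51 TPM.

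A second run in cluster 4, from ZNF93 to ZNF626, held 7 genes over 0.761 Mb. Between the runs, the genes from ZNF430 to ZNF100 were all expressed, among them ZNF714 at 9.78, 10.2 and 9.53 TPM and ZNF431 at 8.12, 7.85 and 8.37 TPM. In cluster 8, a run of 5 from ZNF610 to ZNF578 lay directly after ZNF480, the highest gene of that cluster at 14.3, 14.1 and 15.2 TPM, and before ZNF808 at 5.18, 5.26 and 4.74 TPM. In cluster 9, runs of 6 (ZNF542P to ZNF470) and of 4 (ZNF418 to ZNF135) stood between expressed genes.

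The opposite pattern opened cluster 9. Its first 9 members, from ZNF628 to ZNF444, were all without a KRAB match and all reached 1 TPM in all 3 libraries, with a median of 16.8 TPM and a range of means from 6.07 to 51.0 TPM. The run of 6 low genes began directly after them. In cluster 9 as a whole, the KRAB-matched members had a median of 2.88 TPM (n = 44) and the unmatched of 7.18 TPM (n = 15). The same order was seen in cluster 2, with 3.39 TPM (n = 12) and 12.6 TPM (n = 3). It was also seen in cluster 6, with 0.847 TPM (n = 23) and 9.92 TPM (n = 3). The medians were closer in cluster 3, 1.66 TPM (n = 23) and 1.85 TPM (n = 2). In cluster 7 they were 3.84 TPM (n = 20) and 9.999 TPM (n = 4), but 3.81 and 3.75 TPM in replicate 1. The share at 1 TPM in all 3 libraries was higher for matched members in clusters 3 (52.2% and 50%) and 7 (80% and 50%). These differences within clusters were not tested. The remaining top genes of the clusters were ZNF57 in cluster 1 at 4.52 ± 0.0946 TPM, ZNF791 in cluster 3 at 7.41 ± 0.371 TPM, ZNF101 in cluster 4 at 11.6 ± 1.24 TPM and ZNF302 in cluster 5 at 11.8 ± 0.829 TPM (SD, n = 3 each).

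Promoters in the RefSeq table matched 216 members by symbol and strand, and in 162 of them the start lay within 100 bases of the 5′ end of the deposited row. In the 250 bases before the start, members at 1 TPM in all 3 libraries had a median of 16 CpG (n = 139) and members below 0.1 TPM of 13 (n = 52). The medians were 15 and 13 for KRAB-matched members, and 20 and 17 for coding members without a match. Outside cluster 4, KRAB-matched members had a median of 16 CpG in both classes (n = 102 and n = 32). In cluster 4 the median was 8 in both (n = 14 and n = 15). The promoters of cluster 4 thus held fewer CpG than those of other members, whether or not the gene was detected.

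**Figure D4:**
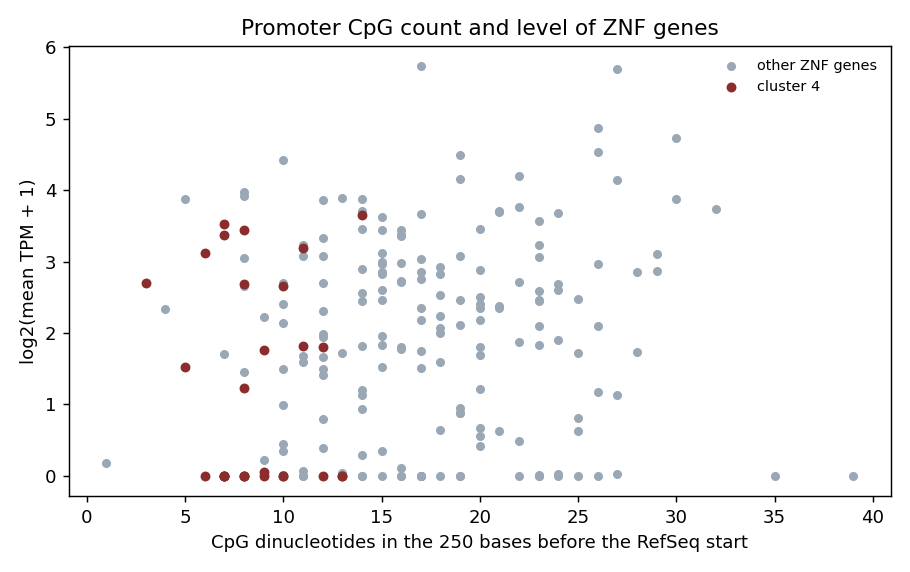
Level of each of the 216 ZNF genes with a RefSeq promoter (vertical axis, log2 of mean TPM + 1) against its number of CpG dinucleotides in the 250 bases before the start (horizontal axis). Cluster 4 lies at the left, between 3 and 14 CpG, and holds genes at 0 and expressed genes over the same CpG counts.

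Among the 23 promoters of cluster 4 that lay within 100 bases of the deposited 5′ end, pairs shared a median of 77.5% of aligned positions (253 pairs, which share genes and are not independent). Pairs in which both genes reached 1 TPM had a median of 73.5%, pairs below 0.1 TPM of 78.9% and pairs with 1 gene on each side of 77.4%. Identity ran from 46.9% to 92.0% over all pairs. Of the expressed genes, ZNF14 shared at most 57.4% with any other, and ZNF708 and ZNF675 at most 69.2%. These expressed genes enter no pair of low genes, and medians without them were not computed. ZNF682, listed at 0 in every library, shared at most 69.0%. The promoters printed above give examples. ZNF486 was listed at 0 in every library and ZNF66 had 1.46, 1.30 and 1.30 TPM. ZNF208 was listed at 0 in every library, whereas ZNF91 had a mean of 10.6 TPM.

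The motif CCAAT, the CCAAT box, was searched on both strands of the same 250 bases. It was present in 29 of 29 cluster 4 promoters, in 82 of the 187 promoters of other members (43.9%) and in 32.0% of all 35116 promoters of the table. The longer CCAATCA, which contains it, was present in 29 of 29 promoters of cluster 4, in 16.04% of those of other members and in 6.62% of all. At least 2 copies of CCAATCA were found in 6 of the 14 expressed and 10 of the 15 low genes of cluster 4. A copy was thus present in expressed and low genes alike, whereas the shares with 2 or more were 42.9% and 66.7%, a difference that was not tested. A match in letters does not show that a factor bound there. The motif search was not among the planned comparisons. Many cluster 4 promoters are similar in sequence, so the 29 are not independent observations. Of the 29, 23 lay within 100 bases of the deposited 5′ end, and the start used for ZNF254 lay 53782 bases from it.

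Members with known roles fell on both sides. Of 9 members reported to bind retroelements, 6 reached 1 TPM in every library, and the other 3 were at 0 throughout. The share at 1 TPM was 61.2% over all members, so this count was near the background. ZNF91, which binds SVA elements, was expressed at 10.6 ± 0.959 TPM, whereas ZNF93, which binds LINE-1 elements, was listed at 0. ZNF587 and ZNF417, close relatives in cluster 9 that bind HERV-K, had 14.1 ± 0.656 and 5.94 ± 0.42 TPM. ZNF417 shares 14.5% of its 150-base words with other members, ZNF587 among them, so the split between them is uncertain. ZNF765 had 6.61 ± 0.24 TPM, ZNF808 had 5.06 ± 0.283 TPM and ZNF611 had 3.55 ± 0.493 TPM (SD, n = 3 each). ZNF649 and ZNF534 were listed at 0 in every library.

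Of 9 members whose promoters are known to be methylated in tumours, 1 reached 1 TPM in every library, compared with 61.2% of all members. This was ZNF331, an imprinted gene at the end of cluster 8, with 12.6, 11.6 and 12.1 TPM. ZNF132 had 0.950, 0.706 and 0.862 TPM, ZNF177 had 0.523, 0.148 and 0.150 TPM, and ZNF671 had 0.111, 0.196 and 0.172 TPM. ZNF154, ZNF582 and ZNF382 were each above 0 in 1 library only and at most 0.129 TPM, and ZNF677 and ZNF471 were listed at 0 in every library. No methylation was measured here, and the list was chosen with earlier results of these data known.

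Among 7 members with other known roles, ZNF274, which recruits SETDB1 to the 3′ ends of zinc finger genes, was the highest, with 14.2, 12.8 and 13.9 TPM. ZNF507 had 8.35 ± 0.889 TPM, ZNF134 had 7.18 ± 0.265 TPM, ZNF224 had 6.83 ± 0.674 TPM and ZNF350, also known as ZBRK1, a partner of BRCA1, had 5.05 ± 0.248 TPM (SD, n = 3 each). ZNF568 and ZNF536, the latter a gene of neurons, were listed at 0 in all 3 libraries.

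The genes listed for the KAP1 pathway were all expressed. The list is a choice of genes, made with earlier results of these data known. Of 17 genes of the KAP1 pathway, 17 reached 1 TPM and 16 reached 10 TPM in all 3 libraries, compared with 53.5% and 36.3% of protein-coding rows. TRIM28 itself, which lies at 58544064 to 58550722 on chromosome 19 beyond the last ZNF gene, had 318.9, 304.5 and 291.8 TPM, above every member. SETDB1 had 23.8, 25.4 and 25.3 TPM, and its partner ATF7IP had 12.03 ± 0.558 TPM. The HP1 genes CBX3, CBX1 and CBX5 had 333.0 ± 6.74, 99.3 ± 1.05 and 57.2 ± 6.22 TPM.

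Of the deacetylase and remodeller genes, HDAC1 had 187.4 ± 8.32 TPM, HDAC2 had 30.8 ± 6.63 TPM, CHD4 had 109.7 ± 6.19 TPM, CHD3 had 104.1 ± 4.83 TPM and RBBP4 had 40.3 ± 3.28 TPM. The HUSH complex genes MPHOSPH8 and PPHLN1 had 19.7 ± 0.32 and 57.9 ± 8.08 TPM, and MORC2, which works with it, had 16.3 ± 0.442 TPM. DNMT1 and UHRF1, which maintain DNA methylation, had 79.4 ± 2.01 and 87.2 ± 3.45 TPM. SMARCAD1, a chromatin remodeller, was the lowest of the list at 10.1 ± 0.857 TPM (SD, n = 3 for each gene).

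Levels differed little between libraries. The 161 members at a mean of 1 TPM or more had a median coefficient of variation of 7.48%, compared with 6.13% for all 13785 gene rows at that mean. 1 member had a range of log2(TPM + 1) above 1, compared with 1.32% of all rows at that mean. This was ZNF428, a protein of 188 residues with 1 finger and no KRAB match, which was listed at 0 TPM in replicate 1 and had 20.1 and 20.9 TPM in replicates 2 and 3. Its row spans 43607224 to 43619629 on the minus strand, and that of SRRM5, on the plus strand at 43612101 to 43614498, lies inside it. SRRM5 had 2.81 TPM in replicate 1 and 0.398 and 0.575 TPM in replicates 2 and 3, the reverse order. Whether the 2 rows exchanged reads was not tested, and the mean of ZNF428 was 13.7 TPM over the 3 libraries and 20.5 TPM without replicate 1.

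The next largest ranges were 0.61 for ZNF585A (7.08, 5.23 and 4.30 TPM), 0.53 for ZNF460 (4.88, 3.94 and 3.06 TPM), 0.46 for ZNF137P (1.16, 1.61 and 0.904 TPM) and 0.44 for ZNF264 (3.51, 2.54 and 3.81 TPM). ZNF585A shares 4.203% of its 150-base words with other members, most with its neighbour ZNF585B, which had at most 0.0409 TPM.

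**Figure D5:**
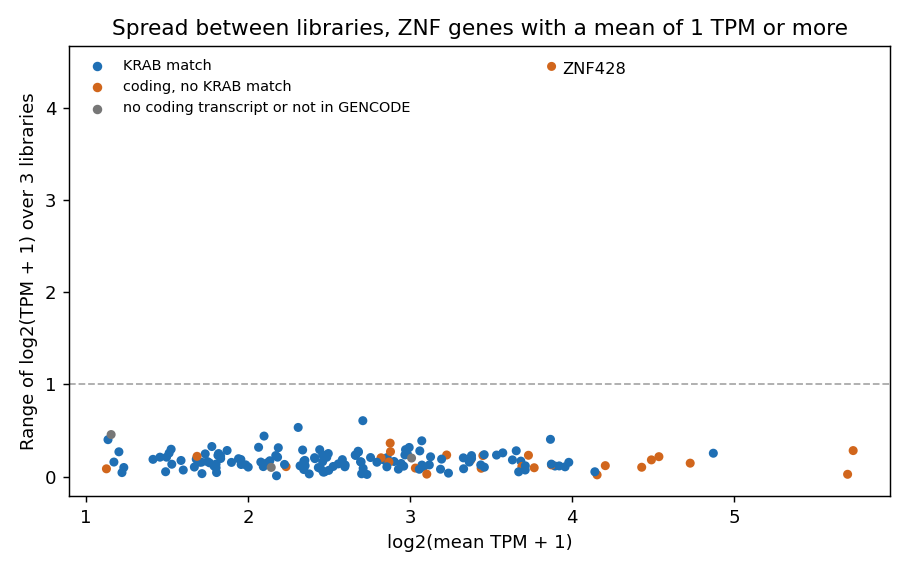
Range of log2(TPM + 1) over the 3 libraries (vertical axis) against log2 of mean TPM + 1 (horizontal axis) for the 161 ZNF genes at a mean of 1 TPM or more, coloured by KRAB match. The dashed line marks a range of 1, and ZNF428, at 4.45, is the single gene above it.

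Near-identical copies and overlaps limit the values of single genes. Of the members, 234 shared no 150-base word with another member, and 4 shared over 10% (ZNF324, ZNF98, ZNF417 and ZNF492). Counted against every other gene of GENCODE v44, 178 shared none and 37 shared over 10%. Among the latter were ZNF321P (100%), ZNF177 (91.1%), ZNF724 (50.5%), ZNF208 (25.6%), ZNF536 (15.6%), ZNF358 (14.9%) and ZNF568 (11.8%), and their levels are uncertain to that extent. A row overlapped another gene row on the same strand in 34 members and on the other strand in 61, while 172 overlapped none. The strand setting of the counting is not given in the sources used here, so reads of overlapping rows could have been assigned to either. Among the genes named, ZNF146, ZNF580, ZNF581, ZNF358, ZNF544, ZNF574, ZNF57, ZNF91, ZNF177, ZNF224, ZNF350, ZNF382, ZNF428, ZNF460, ZNF568, ZNF649, ZNF765, ZNF808, ZNF137P, ZNF321P, ZNF702P, ZNF486, ZNF100, ZNF578, ZNF542P, ZNF565, ZNF653, ZNF296, ZNF175 and ZNF446 overlap another row.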

How the data were processed

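RNA was measured in 3 libraries labelled wild-type HepG2. Per the labels, the authors used FastQC 0.11.8, Trim Galore 0.6.2, STAR 2.6.1a, GRCh38 and StringTie, and deposited a table for each library, in which every gene has its coverage, FPKM and TPM. The annotation and the strand setting are not given in the sources used here. The depth is unknown. The largest coverage per unit of FPKM, a quantity that increases with depth, was 13.3, 12.8 and 11.5 in replicates 1, 2 and 3. The rows shared by the tables (43389) were joined by gene and coordinates, and TPM was used as deposited. Sets were compared within each library by the difference in median log2(TPM + 1), with exact two-sided sign-flip permutation tests. Planned protein tables were replaced by GENCODE v44 translations, read over all coding isoforms, and the coding rows were those with a RefSeq protein-coding symbol. Promoters came from RefSeq. The 6 rows of member names on alternate sequences of the chromosome were left out, and all 6 were listed at 0.

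The members and lists were chosen with earlier results of these data known. The genes named were the 10 highest members, the highest of each cluster, the 5 with the largest range, those without a KRAB match among the 20 highest, all of the lists, and members named as neighbours or examples of runs and promoter pairs, which were chosen after their values were seen. The range calculation was tested on simulated data. Python 3.11.15, numpy 2.4.6, pandas 2.3.3, Biopython 1.88 and matplotlib 3.10.9 were used.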

Additional observations from a re-analysis of the deposited data

How the results depend on the processing

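No paired analysis was possible because all 3 libraries belong to 1 group. The directions of the comparisons of all members with other gene sets, and of KRAB-matched with unmatched members, held under every alternative run. The difference from ZNF genes of other chromosomes ranged from -0.91 with a pseudocount of 0.1 to -0.45 with only genes at a mean of 1 TPM or more, and that from other protein-coding genes of the chromosome from -2.30 under the same limit to -0.35 with FPKM. For KRAB-matched against unmatched members, the difference ranged from -1.99 with coverage in place of TPM to -1.02 with only genes at a mean of 1 TPM or more, and was -1.20 without the first 9 members of cluster 9 and -1.27 with only members that overlap no other row, 2 alternatives chosen after seeing the data. Among the clusters, the differences of cluster 4 (0.11) and cluster 8 (-0.037) reversed when the genes under a mean of 1 TPM were dropped, which leaves out the genes listed at 0, and under the same limit those of clusters 2, 5, 6, 7 and 9 shrank to 0.40, -0.19, -0.22, 0.07 and 0.25. That of cluster 4 was -4.92 with a pseudocount of 0.1 and -3.49 with coverage, and that of cluster 1 was -0.72 with coverage and -0.60 with only genes at 1 TPM. The count of members at 1 TPM, 158, fell to 26 at a limit of 10 TPM, and the count listed at 0, 55, was 36 among the 172 members that overlap no other row, a share of 20.9% compared with 21.3% of all members. Without replicate 1, 0 members had a range above 1, and 1 did without replicate 2 or 3. Scaling without mitochondrially encoded genes raised every level by a factor of 1.25. With 3 libraries no test could pass 0.05, and a gene listed at 0 cannot be told from one below detection, since the depth is unknown.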
